A study of Mus musculus with 8 samples.

Results

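The perinuclear theca and testis actin-related genes described here are 10 genes of the mouse spermatid head: Actrt1, Actrt2, Actrt3, Actl7a, Actl7b, Actl9, Capza3, Cylc1, Cylc2 and Ccin. They were chosen by name, and all 10 were found by gene identifier among the 56748 genes of the count table. Transcripts were counted by RNA sequencing in whole testis of adult mice, with 4 libraries of genotype Ssty2-/- (called knockout here) and 4 of genotype WT (wild type). Ssty2 is a repeated gene of the Y chromosome that is expressed in spermatids, and the study compared testis in which these repeats were deleted with wild-type testis. The labels give neither strain nor exact age. Nor do they say that each library is a different mouse, and the p-values therefore reflect only how far these libraries vary, which may be technical variation.

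The perinuclear theca is a dense cytoskeletal sheath that wraps the nucleus of the sperm head. Its front layer lies between the nucleus and the acrosome, the secretory vesicle that sperm need to reach the egg, and its rear layer, the calyx, lies under the plasma membrane behind the acrosome. Actrt1, Actrt2, Actrt3, Actl7a, Actl7b and Actl9 encode actin-like proteins made in spermatids, and loss of Actl7a or Actl9 is known to loosen the acrosome from the nucleus. Capza3 encodes a germ cell form of the alpha subunit of the protein that caps actin filaments. Cylc1 and Cylc2 encode cylicins, lysine-rich proteins of the calyx, and Ccin encodes calicin, a kelch-repeat protein of the same layer.

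Libraries held between 18036708 and 24415587 counts. For Ssty2 itself the knockout libraries had 0, 0, 0 and 0 counts, and the wild-type libraries had 56, 78, 83 and 45. Levels are given as CPM, counts normalised to library depth with TMM factors (edgeR's trimmed mean method). Across the tested genes, Pearson's r of log2(CPM + 1) was 0.992 to 0.996 between libraries of one genotype and 0.972 to 0.979 between genotypes. No 2 libraries of a group agreed within sampling noise (chi-square per degree of freedom from 4.56 to 9.39).

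Actrt1 and Cylc1 lie on the X chromosome. Actrt2, Actl7a, Actl7b, Cylc2 and Ccin lie on chromosome 4, where Actl7a and Actl7b are neighbours on opposite strands, Actrt3 on chromosome 3, Capza3 on chromosome 6 and Actl9 on chromosome 17. Actrt1, Actrt2, Actl7a, Actl7b, Actl9, Capza3 and Ccin have a single exon in the annotation. Sequences around the RefSeq start site were on hand for 8 of the 10 genes, and 6 are shown because they hold motifs of transcription factor families known for their role in spermatids. They run from 120 bases before to 20 bases after the start, 5′ to 3′ on the strand of the gene, in build GRCm38.p6. Actrt1 is at chrX:46328887-46329026 (plus strand), Cylc1 at chrX:111110298-111110437 (plus), Actl7a at chr4:56743302-56743441 (plus), Actl7b at chr4:56741406-56741545 (minus), Actl9 at chr17:33432779-33432918 (plus) and Ccin at chr4:43983384-43983523 (plus). Capitals mark TGANGTCA, the core of the cAMP response element read by CREB and CREM with 1 free base, or GTTGCCA, part of the X-box read by RFX factors, each searched on both strands; the motifs do not overlap.

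Actrt1: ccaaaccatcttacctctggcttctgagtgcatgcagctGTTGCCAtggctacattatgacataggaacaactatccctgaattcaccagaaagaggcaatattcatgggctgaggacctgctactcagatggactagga

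Cylc1: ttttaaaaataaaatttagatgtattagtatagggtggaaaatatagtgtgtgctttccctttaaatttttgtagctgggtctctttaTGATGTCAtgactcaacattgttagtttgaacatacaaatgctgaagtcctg

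Actl7a: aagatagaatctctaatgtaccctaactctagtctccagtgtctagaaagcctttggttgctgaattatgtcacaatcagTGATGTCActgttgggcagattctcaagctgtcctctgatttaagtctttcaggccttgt

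Actl7b: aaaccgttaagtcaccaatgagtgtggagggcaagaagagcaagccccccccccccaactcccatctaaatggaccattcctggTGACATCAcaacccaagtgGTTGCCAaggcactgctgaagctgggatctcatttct

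Actl9: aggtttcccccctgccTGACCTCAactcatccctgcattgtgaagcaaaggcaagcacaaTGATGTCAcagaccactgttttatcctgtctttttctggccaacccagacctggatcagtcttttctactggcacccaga

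Ccin: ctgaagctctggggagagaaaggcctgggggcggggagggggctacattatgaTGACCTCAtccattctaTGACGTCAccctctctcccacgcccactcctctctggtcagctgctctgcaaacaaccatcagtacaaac

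TGANGTCA was found in 5 of the 8 windows of 300 bases (250 before to 50 after the start) of these genes, against 8.83% of 32851 such windows over all RefSeq genes. The form TGATGTCA began 32 bases before the start of Cylc1, 40 before that of Actl7a and 60 before that of Actl9. Actl7b had its reverse complement TGACATCA from 36 bases before the start. In Ccin the full palindrome TGACGTCA began 50 bases before the start, and 1.79% of all windows hold it. Ccin and Actl9 each had a second match, TGACCTCA, at 67 and 104 bases before the start. Spermatid markers held the motif too, 8 of 12 round spermatid genes and 7 of 11 elongating spermatid genes with a window. GTTGCCA was found 81 bases before the start of Actrt1 and 17 before that of Actl7b, and 4.38% of all windows hold it. The windows of Actrt2 and Actrt3 held neither motif. The motifs were picked with the sequences known, and a match is a description of letters, not of a bound site.

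All 9 genes that could be tested were higher in Ssty2 knockout testis. The rise ran from 1.16-fold for Capza3 to 3.87-fold for Actrt1, with a median log2 fold change of 0.61 against -0.0089 over all 21952 tested genes. Each of the 9 had an adjusted p under 0.05, as did 26.2% of all tested genes in the upward direction, 27.4% in the downward and 53.5% in either (edgeR quasi-likelihood test, Benjamini-Hochberg adjustment over all tested genes). DESeq2's Wald test also called all 9 higher, where it called 25.5% of genes, and none of the 9 had a negative fold change in either tool. In all 9 the lowest knockout library lay above the highest wild-type library, which was the case for 22.7% of tested genes, with 24% separated the other way. Summed over the 10 genes, the wild-type level was 1949 ± 90.4 CPM and the knockout level 3061 ± 74.8 CPM (SD, n = 4 each, two-sided exact permutation p = 0.0286, the smallest that 4 against 4 can give). In whole testis, a change in the number of cells that express a gene and a change in RNA per cell cannot be told apart.

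Actl7b, a near relative of Actl7a, could not be tested. It had 2, 5, 4 and 6 counts in wild-type replicates 1 to 4 and 6, 7, 7 and 2 counts in knockout, and so failed the filter on low counts. These counts do not give its level. Of its 1439 exon bases, 1308 are also exon bases of Gm26657, a gene model on the opposite strand that had 0 counts in every library, and the treatment of reads that overlap 2 genes is not given in the sources used here. None of the other 9 genes shared a word of 31 bases with a transcript of another gene, except Capza3, which shared 5.05% of its words with its opposite-strand neighbour Plcz1.

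Among the actin-related proteins of the Actrt family, Actrt1 changed most. Its level was 20.5, 21.3, 19.9 and 22.5 CPM in wild-type replicates 1 to 4 and 81.1, 93.7, 71.5 and 79.0 CPM in knockout replicates 1 to 4. The wild-type libraries lay close together, and every knockout library was far above them. The log2 fold change was 1.95 ± 0.0821 (SE; edgeR adjusted p = 4.99e-11), the 112th highest of all tested genes and among the 16 highest of 836 tested X-linked genes. X-linked genes in general went both ways, 36.4% of them higher and 41.1% lower, with a median log2 fold change of -0.24.

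Actrt2, which is autosomal, had 468, 387, 401 and 426 CPM in wild type and 726, 641, 607 and 598 CPM in knockout. Its log2 fold change was 0.61 ± 0.0693 (SE; edgeR adjusted p = 2.55e-06), and the groups did not overlap. Actrt3, whose product is known to bind profilin, was lower in level, with 71.9, 55.2, 59.9 and 57.1 CPM in wild type and 88.5, 82.5, 73.2 and 76.0 CPM in knockout. Here the highest wild-type library came close to the lowest knockout library, and the log2 fold change was 0.39 ± 0.0826 (SE; edgeR adjusted p = 0.000832).

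The actin-like genes Actl7a and Actl9 rose by similar amounts. Actl7a had 312, 242, 263 and 286 CPM in wild type and 449, 412, 430 and 414 CPM in knockout, a log2 fold change of 0.63 ± 0.0677 (SE; edgeR adjusted p = 1.53e-06). Actl9 had 390, 335, 351 and 371 CPM in wild type and 555, 504, 508 and 512 CPM in knockout, a log2 fold change of 0.52 ± 0.0560 (SE; edgeR adjusted p = 1.46e-06). In both genes every knockout library lay above the wild-type range, and knockout replicate 1 was the highest, set apart from the other 3 in Actl9.

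The cylicin genes of the calyx rose more than any other member apart from Actrt1. Cylc1 had 73.5, 97.0, 99.5 and 88.6 CPM in wild type and 211, 306, 246 and 252 CPM in knockout, a 2.83-fold rise (log2 1.501 ± 0.102 SE; edgeR adjusted p = 1.16e-08). Its autosomal relative Cylc2 had 280, 318, 339 and 295 CPM in wild type and 453, 619, 551 and 621 CPM in knockout, a 1.82-fold rise (log2 0.86 ± 0.0860 SE; edgeR adjusted p = 6.79e-07). The knockout libraries of both genes were spread widely, with a coefficient of variation of 15.3% for Cylc1 and 14.1% for Cylc2, against 13.1% and 8.42% in wild type. Knockout replicate 1 was the lowest of its group for both.

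Ccin and Capza3 had the smallest changes. Ccin had 229, 189, 194 and 199 CPM in wild type and 283, 237, 260 and 241 CPM in knockout, so that wild-type replicate 1 lay just under the lowest knockout library (log2 fold change 0.33 ± 0.0694 SE; edgeR adjusted p = 0.000812). Capza3 had 211, 192, 220 and 208 CPM in wild type and 229, 262, 236 and 234 CPM in knockout (log2 fold change 0.21 ± 0.0583 SE; edgeR adjusted p = 0.00622). Its call was lost when libraries were scaled by their totals alone (log2 fold change 0.07, edgeR adjusted p = 0.308), a scaling that moved the median of all genes to -0.15.

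**Figure D1:**
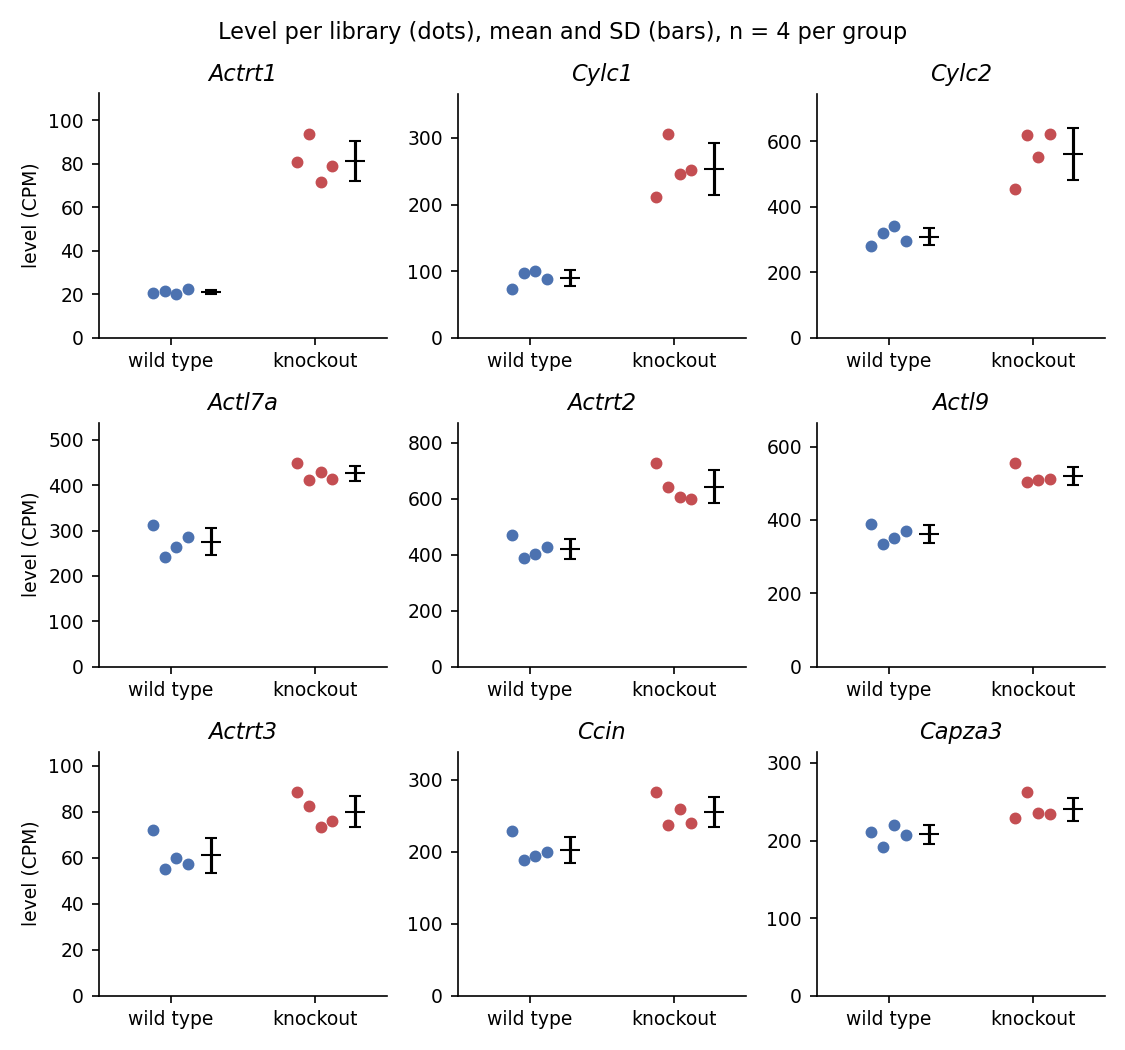
Level of each tested gene in every library, in CPM on linear axes that start at 0, with 1 dot per library and the mean ± SD beside the dots (n = 4 per group). In each panel the knockout libraries sit above all wild-type libraries, for Actrt1 at 71.5 to 93.7 against 19.9 to 22.5 CPM and for Capza3 at 229 to 262 against 192 to 220 CPM.

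Per kilobase of exon, the wild-type order of levels was led by Actrt2 (293 ± 25.0 CPM per kb) and Actl9 (264 ± 17.3), whose ranges overlapped. Actl7a (182 ± 20.1) and Cylc2 (160 ± 13.5) followed, and their ranges overlapped too. Then came Capza3 (136 ± 7.72), Ccin (105 ± 9.39), Cylc1 (44.9 ± 5.86), Actrt3 (31.1 ± 3.82) and Actrt1 (15.7 ± 0.825), with no overlap between neighbours in this order. In knockout Actrt1, at 60.7 ± 6.88 CPM per kb, stood above Actrt3 at 40.8 ± 3.50, and the 2 genes did not overlap. Cylc1 rose to 127 ± 19.5 CPM per kb and overlapped Ccin at 131 ± 10.9. Cylc2 at 291 ± 40.9 overlapped Actl7a at 282 ± 11.2.

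The genes therefore took different shares of their common pool of counts, a measure that does not depend on how libraries are scaled. Actrt1 made up 1.08% ± 0.0845 of the counts of the 10 genes in wild-type libraries and 2.65% ± 0.236 in knockout libraries (SD, n = 4 each, exact permutation p = 0.0286). The share of Cylc1 went from 4.62% ± 0.769 to 8.29% ± 1.15 with the same exact p. Capza3 went the other way, from 10.7% ± 0.455 to 7.85% ± 0.357, as did Ccin, from 10.4% ± 0.522 to 8.34% ± 0.757, and Actrt3, from 3.13% ± 0.254 to 2.61% ± 0.187. In these 5 genes the groups did not overlap, and the exact permutation p of each was 0.0286, or 0.0514 after Benjamini-Hochberg adjustment over the 9 genes, which misses the threshold. For Actrt2, Actl7a, Actl9 and Cylc2 the shares overlapped between groups (exact permutation p from 0.0571 to 0.714). The shares of the 10 genes sum to 100%, so a higher share of one lowers the others.

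**Figure D2:**
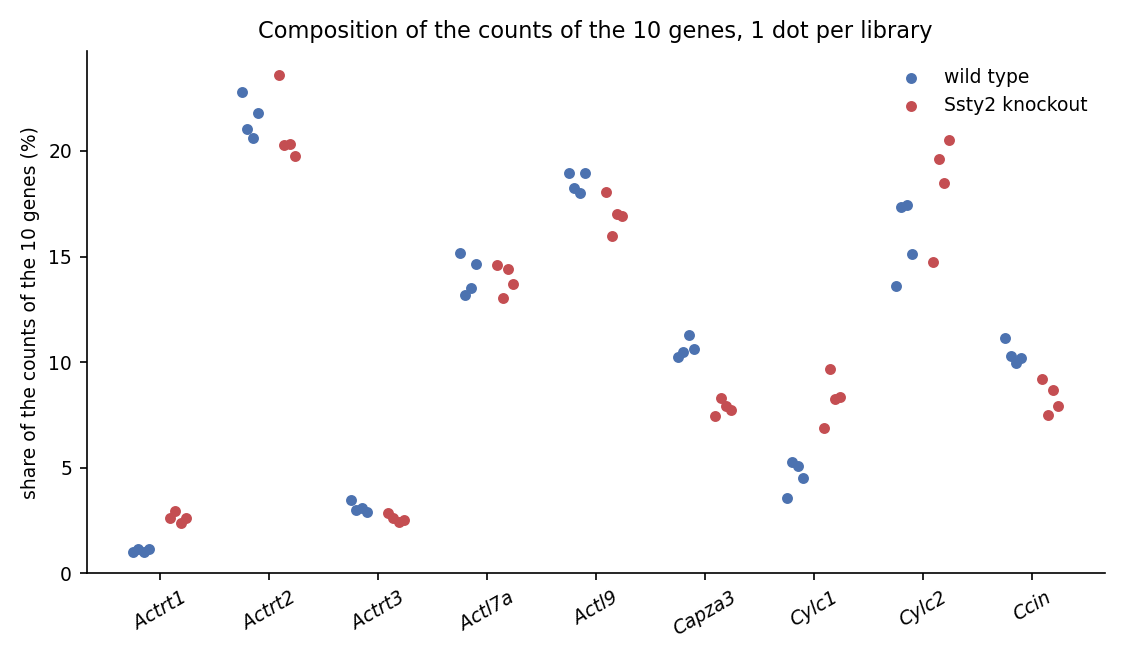
Share of each tested gene in the summed counts of the 10 genes, in percent on the vertical axis, with 1 dot per library (blue for wild type, red for Ssty2 knockout). Actrt1 and Cylc1 take larger shares in the knockout libraries, with no overlap, and Actrt3, Capza3 and Ccin take smaller ones.

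Within each group the cylicins and most of the actin-like genes did not vary in step. Wild-type replicate 1 had the highest level of its group for Actrt2, Actrt3, Actl7a, Actl9 and Ccin and the lowest for Cylc1 and Cylc2. In knockout, replicate 1 was likewise the highest for those 5 genes and the lowest for Cylc1, Cylc2 and Capza3. This pattern was noticed after the values were seen, and with 4 libraries in a group it was not tested.

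Markers of spermatids, the cells that make these transcripts, were higher in the same libraries. Of 13 round spermatid markers 13 rose, with a median log2 fold change of 0.48 and a summed level from 2270 to 2555 CPM in wild type and from 3512 to 3568 CPM in knockout. Of 13 elongating spermatid markers 12 rose, all but Prm3 (median 0.57), with sums from 14803 to 18164 and from 23083 to 26438 CPM. With TMM scaling 1 of 11 spermatocyte markers was higher (Nme8) and 4 were lower (sums from 2061 to 2447 and from 1889 to 2199 CPM, which overlapped). Over all tested genes 26.2% were higher and 27.4% lower with TMM. Of 10 spermatogonia markers 9 fell and 1, Gfra1, rose (237 to 263 and 158 to 166 CPM), of 11 Sertoli cell markers 10 fell (1703 to 1905 and 1126 to 1275 CPM) and of 7 Leydig cell markers 7 fell (1755 to 2037 and 907 to 1016 CPM). Fewer genes marked the remaining cells, with 5 of 6 peritubular myoid markers lower (146 to 167 and 91.6 to 115 CPM), 2 of 4 endothelial markers (16.5 to 18.8 and 13.5 to 14.8 CPM) and 3 of 5 macrophage markers (76.1 to 95.5 and 55.2 to 63.2 CPM). No marker in any of these lists was at 0 in all libraries. With library totals, 12 round and 12 elongating spermatid markers were higher, and 0 spermatocyte markers were higher and 7 lower. On a scale set by the median ratio of the round spermatid markers, 4 elongating spermatid markers were higher and 1 lower. There 11 spermatocyte markers were lower, and of the spermatogonia markers 0 were higher and 9 lower. Over all tested genes 5.03% were higher and 65.9% lower on that scale, and the share with library totals was not taken. Under both scalings 11 of 11 Sertoli cell markers and 7 of 7 Leydig cell markers were lower.

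The members were therefore also set against the round spermatid markers. Libraries were next scaled by the median ratio of those 13 markers, which by construction holds their middle level but not each marker. With that scaling 2 of the 13 markers were still called higher and 2 lower. With TMM their log2 fold changes had run from 0.31 to 0.85, so members within that range do not stand apart from the markers. Cylc2 (0.86 ± 0.0860 SE) lay just above that range, close to the marker Izumo1 (0.85 ± 0.0677 SE). The median of all genes moved to -0.53, with 5.03% of genes called higher and 65.9% called lower. On that scale 3 of the 9 genes stayed higher. Actrt1 had a log2 fold change of 1.43 ± 0.0914 (SE; edgeR adjusted p = 7.40e-11), Cylc1 of 0.98 ± 0.0999 (edgeR adjusted p = 2.83e-08) and Cylc2 of 0.34 ± 0.0829 (edgeR adjusted p = 0.00102). Actl7a (0.11), Actrt2 (0.09), Actl9 (0.0025) and Actrt3 (-0.13) did not pass, with edgeR adjusted p from 0.145 to 0.973. Ccin and Capza3 fell on this scale, by 0.19 and 0.31 on the log2 scale (edgeR adjusted p = 0.0271 and 0.000124).

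**Figure D3:**
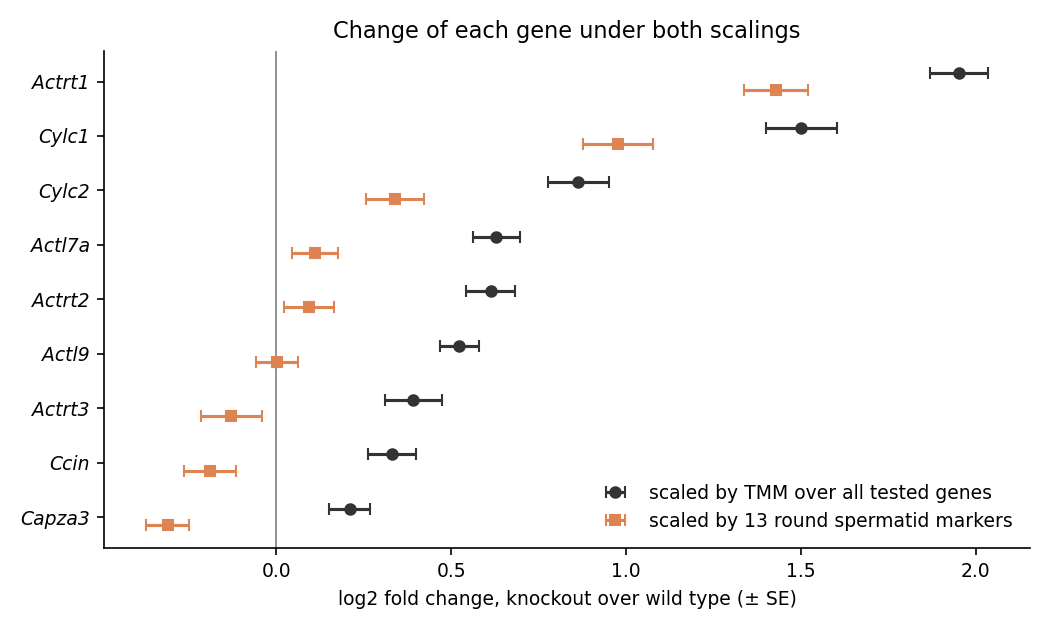
Log2 fold change (knockout over wild type) of each tested gene with its standard error, scaled by TMM over all tested genes (black circles) and by the 13 round spermatid markers (orange squares). All circles lie above 0, while the squares of Actrt1, Cylc1 and Cylc2 lie farthest above 0 and those of Actrt3, Ccin and Capza3 lie below it.

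Ratios were also taken within each library, against the same markers. Every gene is set against a common reference, and another reference shifts all genes by the same amount. The order of the genes is therefore no separate check of the scaling above. The log2 ratio of Actrt1 to the summed counts of the round spermatid markers was higher in knockout by 1.42 and that of Cylc1 by 0.98, while that of Capza3 was lower (-0.31); in these 3 genes the groups did not overlap (n = 4 each, exact permutation p = 0.0286, or 0.0857 adjusted over the 9 genes). For the other 6 genes the groups overlapped, with differences from -0.19 for Ccin to 0.33 for Cylc2 (exact permutation p from 0.0857 to 1). Against the elongating spermatid markers, Actrt1 and Cylc1 again did not overlap upward, and Actrt3, Capza3 and Ccin did not overlap downward (differences of -0.24, -0.42 and -0.30). How far the number of spermatids accounts for the level of each gene was not tested.

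The Cypt genes, which encode small cysteine-rich proteins also named for the perinuclear theca, rose as well. Of 11 listed, 7 were found by symbol and tested, and 7 rose, or 4 higher and 1 lower on the round spermatid scale and 6 higher with library totals. Over all tested genes 26.2% rose and 27.4% fell with TMM, and 5.03% rose and 65.9% fell on the round spermatid scale. That share was not taken with library totals. Their median log2 fold change was 0.98. Cypt3 went from 77.8 ± 2.78 to 183 ± 16.9 CPM, Cypt2 from 57.0 ± 2.73 to 140 ± 15.2 CPM, Cypt1 from 135 ± 7.39 to 267 ± 28.8 CPM and Cypt15 from 9.55 ± 1.27 to 21.1 ± 4.30 CPM (edgeR adjusted p from 7.67e-10 to 3.33e-06). All 4 are X-linked, like Actrt1 and Cylc1. Cypt14, also X-linked, had a log2 fold change of 0.58, beside 0.61 for Cypt12 on chromosome 3 and 0.38 for Cypt4 on chromosome 9. Cypt2, Cypt3, Cypt4, Cypt14 and Cypt15 share 13.5%, 15.2%, 17.7%, 25.5% and 23.7% of their words of 31 bases with other genes. Their single values are therefore uncertain. Cypt14 was also low in level, at 2.43 ± 0.631 CPM in wild type and 3.63 ± 0.517 CPM in knockout.

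Genes that anchor the acrosome or lie with the theca showed smaller rises. Of 17 tested, 12 rose and 1 fell (median log2 fold change 0.23), but with library totals 7 rose and 2 fell, and on the round spermatid scale 13 fell. Over all tested genes 26.2% rose and 27.4% fell with TMM, and 65.9% fell on the round spermatid scale. Fam209 (0.51 ± 0.0650 SE), Wbp2nl (0.51 ± 0.0753), Spaca1 (0.48 ± 0.0727) and Spata46 (0.47 ± 0.0730) led the list (edgeR adjusted p from 8.13e-06 to 5.85e-05). Spaca1 encodes a membrane protein of the acrosome that is known to associate with the theca, and Wbp2nl encodes a protein of its rear layer. The gene that fell, Vps54, is a trafficking gene and was named after its value was seen (-0.50). Plcz1, the sperm factor that activates the egg and the neighbour of Capza3, had a log2 fold change of 0.16 that did not pass (edgeR adjusted p = 0.0713).

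Actins and actin-related proteins beyond the members went both ways. Of 27 genes, 23 were tested, and 5 rose and 8 fell (median log2 fold change -0.07), or 3 and 13 with library totals and 0 and 20 on the round spermatid scale. The counts with TMM lie near the shares over all tested genes, 26.2% higher and 27.4% lower. On the round spermatid scale those shares were 5.03% and 65.9%. Among those with the smallest p, the Arp2/3 subunit genes Arpc1b and Arpc5 had log2 fold changes of -0.69 and -0.59. Actl11 went from 423 ± 27.8 to 591 ± 7.34 CPM and the smooth muscle actin gene Actg2 from 186 ± 17.5 to 257 ± 10.7 CPM. Chosen for naming only once values were known, the remaining higher genes were Actr10 (0.27), Actb (0.27) and Actl10 (0.32). The remaining lower genes were Actr3b (-0.95), Arpc3 (-0.63), Acta2 (-0.55), Actr3 (-0.45), Arpc4 (-0.38) and Actr6 (-0.35). Acta2, another smooth muscle actin gene, thus had the opposite sign to Actg2. Actb shares 23.6% of its words with other genes, Actg1 and actin pseudogenes among them. Actr3, Arpc1b and Arpc4 share 34.2%, 30.5% and 10.8% of their words with other genes. The single values of these genes are therefore uncertain.

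Capping proteins, profilins, severing factors and the cyclase-associated protein genes Cap1 and Cap2 split. Of 15 tested, 4 rose and 7 fell (median -0.26), or 2 and 10 with library totals and 1 and 14 on the round spermatid scale. Beside these counts, 26.2% of all tested genes rose and 27.4% fell with TMM, and 5.03% rose and 65.9% fell on the round spermatid scale. Cap2 went from 59.6 ± 6.13 to 103 ± 5.90 CPM (log2 0.79), and Cap1, Twf1 and Pfn1 fell by 0.55, 0.63 and 0.40 on the log2 scale (edgeR adjusted p from 2.95e-07 to 2.66e-05 for these 4). Capza2, a widely expressed alpha subunit, fell by 0.48 on the log2 scale (edgeR adjusted p = 8.36e-05), and Capza1 (0.04, edgeR adjusted p = 0.67) did not pass, though 70.2% of its words occur in other genes. Capzb, the beta subunit, had a log2 fold change of 0.22 (edgeR adjusted p = 0.004) beside the 0.21 of Capza3. Arpc1b and Twf1 share 18.2% and 12.9% of their exon bases with opposite-strand genes, so their values are uncertain. These and the other profilins, Pfn2 (0.28) and Pfn4 (0.22), were named after their values were seen. Pfn3 had 0 counts in all libraries, and all 545 of its exon bases are also exon bases of Slc34a1 on the opposite strand, so its level is not given by these counts.

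**Figure D4:**
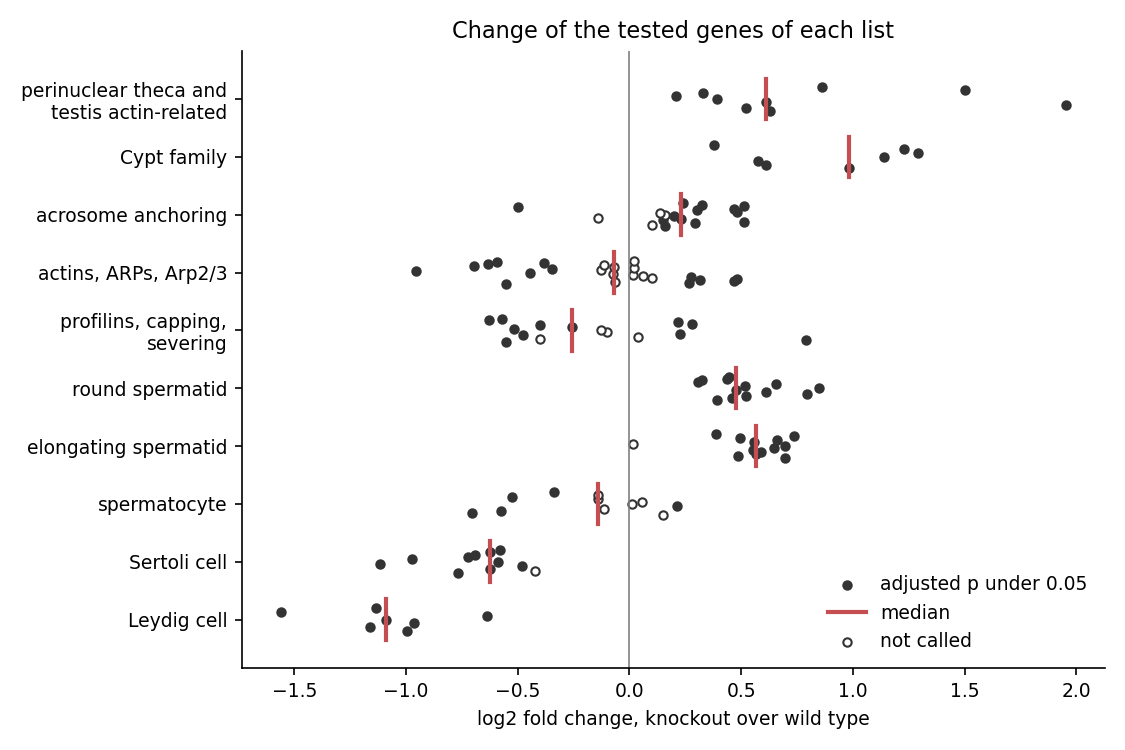
Log2 fold change (knockout over wild type) of every tested gene of 10 lists with TMM scaling, with filled dots for an edgeR adjusted p under 0.05, open dots for genes not called and a red line at the median. The 9 tested perinuclear theca and testis actin-related genes spread from 0.21 to 1.95, the Cypt and spermatid lists also lie above 0, and the actin, profilin and capping lists lie on both sides of it.

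Among named genes, those whose profile over the 8 libraries was most like that of Actrt1 all lay on the X chromosome. Likeness was the root mean square difference of log2(CPM + 1), centred on the wild-type mean, over 15355 named genes. Tested genes with a gene model, clone or pseudogene name were left out, as were the members. Btbd35f29 (0.146), Sytl5 (0.149), Ctag2 (0.164), Fam122c (0.197) and Btbd35f27 (0.201) came closest. Ctag2 went from 38.8 ± 4.13 to 133 ± 5.91 CPM and Fam122c from 32.8 ± 0.879 to 106 ± 0.803 CPM, so both were of a similar level to Actrt1, while Btbd35f29, Sytl5 and Btbd35f27 had 2.46, 2.31 and 1.24 CPM in wild type. The measure picks genes of like change in log2(CPM + 1), where the added 1 damps changes at low CPM. The fitted log2 fold changes of Btbd35f29, Sytl5 and Btbd35f27 were 2.15, 2.19 and 2.43. Those of Ctag2, Fam122c and Actrt1 were 1.78, 1.69 and 1.95. No p is attached to the measure.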

How the data were processed

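The authors deposited 1 table of raw gene counts for the 8 libraries, not normalized. Per the labels' protocols, TRIzol RNA was DNase-treated and sequenced from TruSeq libraries. The submitters' processing notes name build mm39, featureCounts, STAR, Trimmomatic, FastQC and DESeq2. Tool versions, strand setting and the handling of shared reads were not given in the sources used here. Names, chromosomes, exon lengths and overlaps came from GENCODE vM21 (GRCm38), and start-site windows from RefSeq (GRCm38.p6), so no position is given in mm39.

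Low counts were removed with filterByExpr (at least 10 counts, total of 15 or more). The quasi-likelihood test of edgeR 4.0.16 (R 4.3.3) followed TMM scaling, with genotype as the only term; alternatives included DESeq2 1.42.0. The test was checked on simulated counts, with 91 tested genes changed by 1 and 105 by 2 on the log2 scale. It recovered 80.2% and 99.0% of them, and 5.35% of its calls were false. Far fewer genes changed there than the 53.5% called in these data, so the check does not cover TMM scaling under so broad a change. By rule, the genes named beyond the members were Ssty2, up to 4 genes with the smallest p of each pathway list and the 5 genes most like Actrt1. All others, such as relatives of members, single exceptions within lists, overlapping genes and neighbours, were named after their values were seen. The members and lists were chosen with earlier results of these data known. Exact permutation tests were two-sided.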

Additional observations from a re-analysis of the deposited data

Results flagged for a closer look

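In each group of 4 libraries, the gap between the highest or lowest level and the next was set against the whole range, for 20 groups (10 genes in 2 genotypes). A gap over Dixon's critical value for 4 samples was found in 2 of them, where chance gives about 1 in 20. For Actl9, knockout replicate 1 stood at 555 CPM above the other knockout libraries, which lay between 504 and 512 CPM (gap of 0.835 of the range). Without that library the rise of Actl9 kept its call. For Actl7b, knockout replicate 4 stood at 0.116 CPM below the other knockout libraries at 0.322 to 0.331 CPM (gap of 0.957 of the range), but this is a difference of 2 against 6 or 7 counts.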

How the results depend on the processing

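The 9 tested genes were fitted under 14 alternatives. All 9 were called higher with DESeq2 size factors, without a filter on low counts, with the DESeq2 Wald test and without each library in turn, where log2 fold changes ran from 0.17 (Capza3) to 2.01 (Actrt1). With library totals 8 were called, all but Capza3. With size factors from the round spermatid markers 3 were called higher and 2 lower, and Actrt3 (-0.13), Capza3 (-0.31) and Ccin (-0.19) changed sign. The share of higher genes among all calls was 48.9% with TMM, 31.8% with library totals and 7.09% with the round spermatid factors. Of all tested genes, 26.2% were called higher with TMM, 25.5% with the DESeq2 Wald test and 5.03% with the round spermatid factors. For the other settings that share was not taken, so their counts of members have no background beside them. The summed level and the share of Actrt1 kept their direction under each alternative run. For the summed level these were library totals, DESeq2 size factors and each library left out, not the round spermatid factors. With library totals the difference in the summed level was 866 CPM, against 1112 CPM with TMM. Ratios near 0 changed sign with the elongating spermatid markers as reference, for Actrt2 (-0.023), Actl7a (-0.00046) and Actl9 (-0.11), and the ratio of Actl9 ran from -0.030 to 0.021 without single libraries. Without a filter Actl7b had a log2 fold change of 0.52 ± 0.597 (SE; edgeR adjusted p = 0.541). With the replicate number as a block, 9 genes were called higher and 0 lower, the same as without it. The standard error went from 0.102 to 0.0568 for Cylc1 and from 0.0583 to 0.0578 for Capza3. Libraries with the same number deviated together with r from 0.0165 to 0.14, over 0.1 in 1 of 4 pairs. Of the 8 libraries, 6 correlated best with their own number. The main fit did not take the numbers as pairs, and the labels do not say whether they are pairs. The cause of each change of call was not tested.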

Other observations

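The 2 nearest tested genes on each side of every member gave 36 neighbours, of which 15 were called higher and 9 lower (median log2 fold change 0.14), where 26.2% and 27.4% of all tested genes were called in these directions. They were looked at after the members' values were known. Beside Actrt1, 4930515L19Rik (log2 fold change 0.66), Gm5386 (1.51) and Gm6480 (1.34) were higher at 2.68 CPM or less in knockout, while the chromatin remodeller gene Smarca1 fell from 18.9 ± 3.12 to 9.86 ± 1.32 CPM. Beside Cylc1, Gm4784 (1.94) and the kinase gene Rps6ka6 (0.52) were higher and Sh3bgrl was lower (-0.85). Beside Actrt2, Ttc34 went from 16.5 ± 1.62 to 31.9 ± 1.88 CPM and Gm13112 from 6.95 ± 0.448 to 15.5 ± 0.492 CPM. The nearest genes after Ccin, Clta (-0.70) and Gne (-0.64), fell.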
